A study of Rattus norvegicus with 12 samples.

Results

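Oral sodium tungstate was given to non-diabetic rats, and whole-pancreas RNA of treated and untreated animals was hybridized to an Affymetrix rat array (RAE230-A). The comparison used 6 of the 12 arrays of the series, 3 of healthy untreated (HU) and 3 of healthy tungstate-treated (HT) rats, and 15866 of the 15923 probe sets on the array, which were all those that are not manufacturer's controls. All rats were adult male Wistar rats. HU rats were kept for 5 to 6 weeks without tungstate, and HT rats drank sodium tungstate at 0.7 g/L for 1 week and at 2 g/L for the next 4 to 5 weeks according to the labels, with normal glycemia in both groups. The methods describe the higher concentration throughout, and this difference could not be settled. The 9 rats of each group were pooled by 3, with 1 pool per array, and every p-value below measures the spread between pools. The other 6 arrays came from rats made diabetic with streptozotocin, untreated (DU) or given tungstate (DT). They entered the estimate of the spread and were otherwise used only where stated.

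Tungstate is an oxyanion chemically close to molybdate, phosphate and vanadate. It inhibits protein phosphatases in vitro, can replace molybdenum in the cofactor of enzymes such as xanthine and sulfite oxidase, and lowers blood glucose in diabetic rodents. The pancreas is mostly acinar tissue, which makes digestive enzymes, with a small share of islets. In such bulk RNA, fewer cells of a type and less RNA per cell cannot be told apart.

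All values are log2 expression levels or differences of log2 levels (HT minus HU), with 95% confidence intervals from limma. The tissue was pancreas by its markers: the acinar enzymes Cela2a, Ctrb1 and Pnlip lay between 14.18 and 14.51 on all 6 arrays, at the top of the array's range, and Ins1 lay between 13.62 and 13.84. Array medians ran from 6.65 to 6.70. Pools HU3 and HT3 stood apart from the others. In HT3 14.7% and in HU3 10.5% of probe sets lay further from the mean of the other 5 arrays than a rise of 25% or the matching fall, against at most 4.24% on the remaining 4. The difference between the 3′ and the 5′ probe set of Gapdh, a measure of RNA integrity and of labeled RNA length, was lowest in HU3 (0.66) and highest in HT3, with the other 4 arrays between 0.87 and 1.05. The same difference for actin did not set HU3 apart (−0.26, against −0.24 and −0.28 in HU1 and HU2), and was −0.26 in HT1, −0.10 in HT2 and −0.08 in HT3. HT1, HT2 and HU3 were scanned on the same day (the shared scan), whereas HT1, HT2, HU1 and HU2 were of the same chip lot (the shared lot). HT3 entered neither set, since it was the only healthy array of its scan day and of its lot. HU3 was the only healthy array of its lot. Values within these sets are given for a part of the results.

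The transcript that differed most firmly was Mug1, murinoglobulin, a plasma protease inhibitor of the alpha-2-macroglobulin family. Its levels were 6.39, 5.62 and 6.68 in HU and 4.57, 4.70 and 4.34 in HT. Every HT pool was below every HU pool. Mug1 fell by 1.69 on the log2 scale (SE 0.20, interval −2.13 to −1.26, limma adjusted p = 0.0181), and it was the only probe set with an adjusted p under 0.05, which is 0.00630% of those tested. No probe set had a B-statistic above 0, the study's threshold (0%). In the diabetic groups Mug1 was at 4.13 ± 0.15 in DU and 4.07 ± 0.10 in DT (SD, n = 3 each), so that HU was the only group above 5. The difference was −2.05 within the shared scan and −1.37 within the shared lot. It remained negative without any single pool, whereas its adjusted p ranged from 3.66e-05 without HU2 to 0.678 with the healthy arrays fitted alone. The shared spread behind the adjusted p of 0.0181 includes the diabetic pools, whose SD was smaller than in HU (0.55) and HT (0.18). With the healthy arrays alone the interval of Mug1 was −2.22 to −1.17.

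A second murinoglobulin probe set is annotated to several genes (Mug1, Mug1l1 and Cpamd8) and had the same order of pools, at 9.24, 8.52 and 9.62 in HU and 7.76, 7.95 and 7.38 in HT. The groups did not overlap, and the difference was −1.43 (interval −1.89 to −0.97, adjusted p = 0.101). Murinoglobulin genes are near-identical copies, and which of them these probe sets read cannot be told apart here. Other members of the class did not pass the test: Pzp differed by 0.10, A2m by 0.19, and the acute phase proteins Cp by 0.29 and C3 by 0.21. Among 41 plasma protease inhibitors and acute phase proteins, 21 lay above and 20 below 0. The 14 liver markers had a median of 0.02, with pool medians of −0.02 to 0.03 in HU and 0.00 to 0.07 in HT. Albumin (Alb) differed by −0.09 (interval −0.52 to 0.35).

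The region before the start of the 3 murinoglobulin genes is shown because the annotation of these probe sets names more than one such copy, and the copies are alike upstream too. Mug2 is added as a further copy that neither probe set is annotated to. The 100 bases before the annotated start are given from RefSeq (GRCr8, plus strand), at chr4:156748295-156748394 for Mug1, chr4:156652273-156652372 for Mug1l1 and chr4:156836055-156836154 for Mug2. Capitals mark the word ATAAATA, which resembles a core promoter box and was searched on both strands.
Mug1: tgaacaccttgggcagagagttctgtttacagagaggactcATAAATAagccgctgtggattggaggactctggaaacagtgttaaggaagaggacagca
Mug1l1: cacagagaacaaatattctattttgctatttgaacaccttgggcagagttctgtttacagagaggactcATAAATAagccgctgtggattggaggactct
Mug2: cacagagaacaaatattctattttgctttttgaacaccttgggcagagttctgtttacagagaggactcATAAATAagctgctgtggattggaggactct
The word was present in 3 of 3 of these regions and in 2.13% of the 33469 promoters in the table over the same length (1.20% on the gene's own strand). Since the 3 regions are near-identical copies, they do not count as separate occurrences. The word began 59 bases before the annotated start of Mug1 and 31 bases before that of Mug1l1 and Mug2. Where the 250 bases upstream could be aligned, Mug1 was identical to Mug1l1 at 211 of 222 positions and to Mug2 at 215 of 222.

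**Figure D1:**
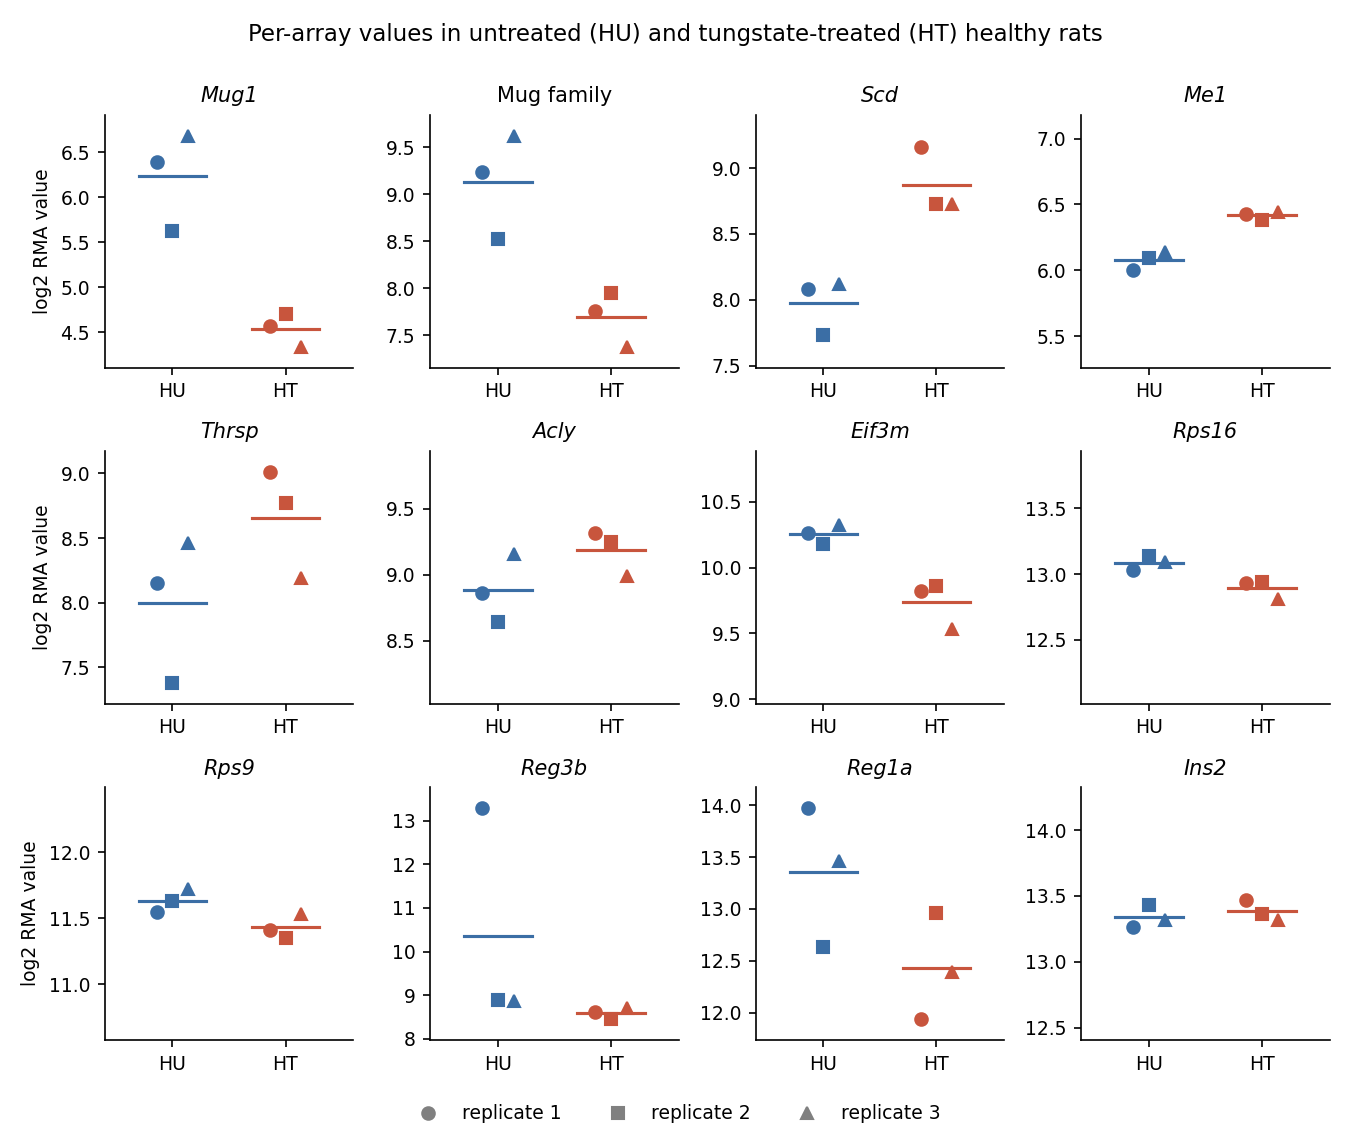
Log2 level of 12 transcripts on each of the 6 arrays, 1 panel per transcript, with HU on the left and HT on the right; circles, squares and triangles are replicate pools 1, 2 and 3 and lines are group means. Mug1 and the family probe set lie lower and Scd higher in every HT pool, whereas the high HU mean of Reg3b comes from pool HU1 at 13.29.

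Beyond Mug1, the question was how large an undetected effect of tungstate in the healthy pancreas could be. The measured change was 1.06-fold at the median and below 1.29-fold for 99% of probe sets, whereas the same percentile was 1.69-fold for DU vs. HU and 1.57-fold for DT vs. DU. Only 17 probe sets differed more than 1.5-fold (4 higher and 13 lower in HT) and 4 more than 2-fold, all of them lower. To be the only call, a probe set needed a median change of 1.73-fold, with 1.49- to 2.47-fold for the middle 90%. Smaller changes were therefore not detectable for most genes with these pools.

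A bound was then tested for each probe set with a pair of one-sided limma tests, adjusted over all probe sets. The change was bounded within 1.5-fold for 15396 probe sets (97.0%), within 2-fold for 15829 (99.8%) and within a rise of 25% or the matching fall for 9140 (57.6%). The bound within 1.5-fold held for 99.2% of probe sets in the dimmest 25% by level and for 94.6% in the brightest 25%. The dimmest 25% ran from 3.55 to 5.63, down to the lowest levels of the array. There the bound holds for the signal, and a change of the transcript may not show in it. Without adjustment, 859 probe sets (5.41%) had a p under 0.05, 420 of them higher (2.65%) and 439 lower (2.77%) in HT. Without HT3 this number was 317 (2.00%).

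**Figure D2:**
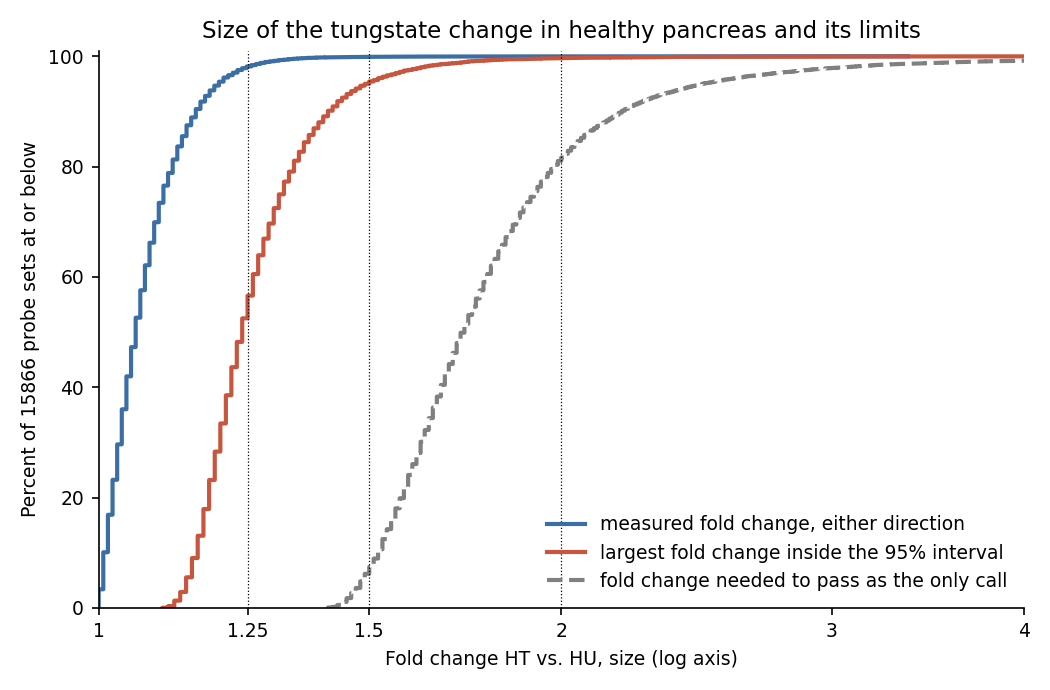
Cumulative percent of the 15866 probe sets (vertical axis) against the size of the change between HT and HU as a fold on a log axis, for the measured change, the largest fold inside the 95% interval and the fold needed to be the only call. The measured change has a median of 1.06-fold, the largest fold in the interval 1.24-fold and the fold needed 1.73-fold.

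The 37 probe sets that could not be bounded within 2-fold represented 26 named genes, 13 of the probe sets being higher and 24 lower in HT. They included Mug1, Scd and Thrsp, and several whose spread came from 1 pool. The Reg genes encode secreted C-type lectins of the inflamed pancreas. Reg3b, named after its values were seen, measured 13.29, 8.89 and 8.86 in HU and 8.61, 8.45 and 8.70 in HT. Pool HU1 alone was high. The difference of −1.75 (interval −4.28 to 0.78) became −0.28 without HU1. Reg3a, chosen in the same way, had the same single high pool (12.87 in HU1 against 8.34 to 9.16 on the other arrays), and its difference moved from −1.44 to −0.07 without it. Reg1a was highest in HU1 too, at 13.97, 12.63 and 13.46 in HU and 11.94, 12.96 and 12.39 in HT. Its difference of −0.92 (unadjusted p = 0.0264, adjusted p = 0.871) was −0.61 without HU1 (unadjusted p = 0.137).

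Transcripts of fatty acid synthesis included the largest higher value. Scd, stearoyl-CoA desaturase, which makes monounsaturated fatty acids, measured 8.08, 7.73 and 8.12 in HU and 9.16, 8.73 and 8.73 in HT. All HT pools exceeded all HU pools, as was the case for 5.74% of all probe sets. The difference was 0.90 (interval 0.53 to 1.26, unadjusted p = 0.000135, adjusted p = 0.491). It stayed between 0.75 and 1.04 under every alternative run, with an adjusted p of 0.120 to 1.00. In diabetic pancreas Scd was lower, at 7.30 ± 0.17 in DU and 7.67 ± 0.34 in DT (SD, n = 3 each).

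Me1, malic enzyme, which supplies NADPH for the pathway, was at 6.00, 6.09 and 6.14 in HU and 6.43, 6.38 and 6.44 in HT. These values did not overlap either (0.34, unadjusted p = 0.000825). Thrsp (Spot 14, a nuclear factor of lipogenic tissues) differed by 0.66 on 1 of its 3 probe sets, with HU at 8.15, 7.38 and 8.46 and HT at 9.01, 8.77 and 8.19. Here HT3 lay inside the HU range, and without HU2 the difference was 0.35. The other Thrsp probe sets gave 0.60 (interval −0.01 to 1.21) and 0.14 (−0.28 to 0.56). Acly, ATP-citrate lyase, differed by 0.30 (unadjusted p = 0.0365), also with HT3 at 8.99 inside the HU values of 8.64 to 9.16. Fasn, fatty acid synthase, and Acaca, acetyl-CoA carboxylase, differed by 0.38 (interval −0.10 to 0.85) and 0.18 (−0.09 to 0.45), while Srebf1, the transcription factor of the pathway, differed by 0.00 (−0.20 to 0.20).

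Of the 32 genes of fatty acid and triglyceride synthesis, 23 lay above 0 and the median was 0.06, against 49.4% above 0 and a median of 0.00 over all probe sets. None passed the adjusted test. 5 were higher and 0 lower at an unadjusted p under 0.05, against 2.65% and 2.77% of all probe sets. Bounded within 1.5-fold were 28 of the 32, which is below the 97.0% of all probe sets. The median was 0.01 within the shared scan and 0.10 within the shared lot. With the scan as a block, 17 lay above 0, with 2 higher and 4 lower at an unadjusted p under 0.05. Fatty tissue is a neighbor of the rat pancreas, and the 14 adipocyte markers had pool medians of −0.10 to 0.16 in HU and −0.08 to 0.10 in HT, with a list median of 0.01. Car3, an abundant adipocyte enzyme, was highest in HU3 (10.74) and differed by −0.16 between the groups. The 45 genes of fatty acid oxidation and ketogenesis had a median of −0.07 with 13 above 0. Hadhb, a subunit of the mitochondrial trifunctional protein, differed by −0.26 (unadjusted p = 0.0124).

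The list that lay furthest from 0 was that of the cytosolic ribosomal proteins. Of its 43 genes, 39 were below 0 with a median of −0.13, whereas 50.6% of all probe sets and 56.2% of the brightest 25%, where 40 of the 43 lie, were below 0. No member passed the adjusted test. At an unadjusted p under 0.05, 7 were lower and 0 higher, against 2.77% and 2.65% of all probe sets. 14 of the 43 were lower in every HT pool than in every HU pool, against 5.83% of all probe sets. 40 of the 43 were bounded within 1.5-fold, against 97.0% of all probe sets.

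The member with the smallest p was Rps16, a protein of the small subunit, at 13.03, 13.14 and 13.09 in HU and 12.93, 12.94 and 12.81 in HT. Its pools did not overlap, and the difference was −0.19 (unadjusted p = 0.0217). Rps9 was at 11.55, 11.63 and 11.72 in HU and 11.41, 11.35 and 11.53 in HT, a difference of −0.20 (unadjusted p = 0.0276). The brightest member, Rps29, differed by −0.07 (interval −0.28 to 0.14). Relative to each gene's HU mean, the list's median per pool was −0.02, −0.02 and 0.04 in HU and −0.14, −0.07 and −0.16 in HT. The shift was therefore present in every HT pool, and it depended on the pools and on the scaling. It was −0.16 within the shared scan and −0.07 within the shared lot. Without HU3 and HT3 it was −0.07, with 32 of 43 below 0 and 1 lower at an unadjusted p under 0.05, and after a further quantile normalization it was −0.05, with 25 of 43 below 0 and 0 lower. The Gapdh 3′ to 5′ difference was highest in HT3 as well, and its part in this result was not tested.

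Of translation factors and their regulators, 41 of 59 were below 0 with a median of −0.06 (−0.11 within the shared scan and −0.02 within the shared lot). The median was −0.02 without HU3, with 36 of 59 below 0, and −0.02 without HU3 and HT3, with 34 of 59. None passed the adjusted test. 5 were lower and 1 higher at an unadjusted p under 0.05, against 2.77% and 2.65% of all probe sets. Eif3m, a subunit of the initiation factor that prepares the small ribosomal subunit, had the smallest p. It measured 10.26, 10.18 and 10.32 in HU and 9.82, 9.86 and 9.53 in HT. The pools did not overlap, and the difference of −0.51 (interval −0.72 to −0.30, unadjusted p = 0.000132, adjusted p = 0.491) stayed between −0.57 and −0.37 under every alternative run. Eif3a, the scaffold of the same complex, differed by −0.49 and Eif2s2, which carries the initiator tRNA with its partners, by −0.41. Without HU3 and HT3 Eif3a differed by −0.26 and Eif2s2 by −0.24. In DT vs. DU the differences of Eif3m, Eif3a and Eif2s2 were 0.09, 0.11 and 0.04. The elongation factor Eef1a1 differed by −0.20 (unadjusted p = 0.111). Among the 41 proteasome genes the median was −0.08, but it was −0.25 within the shared scan and −0.02 within the shared lot.

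**Figure D3:**
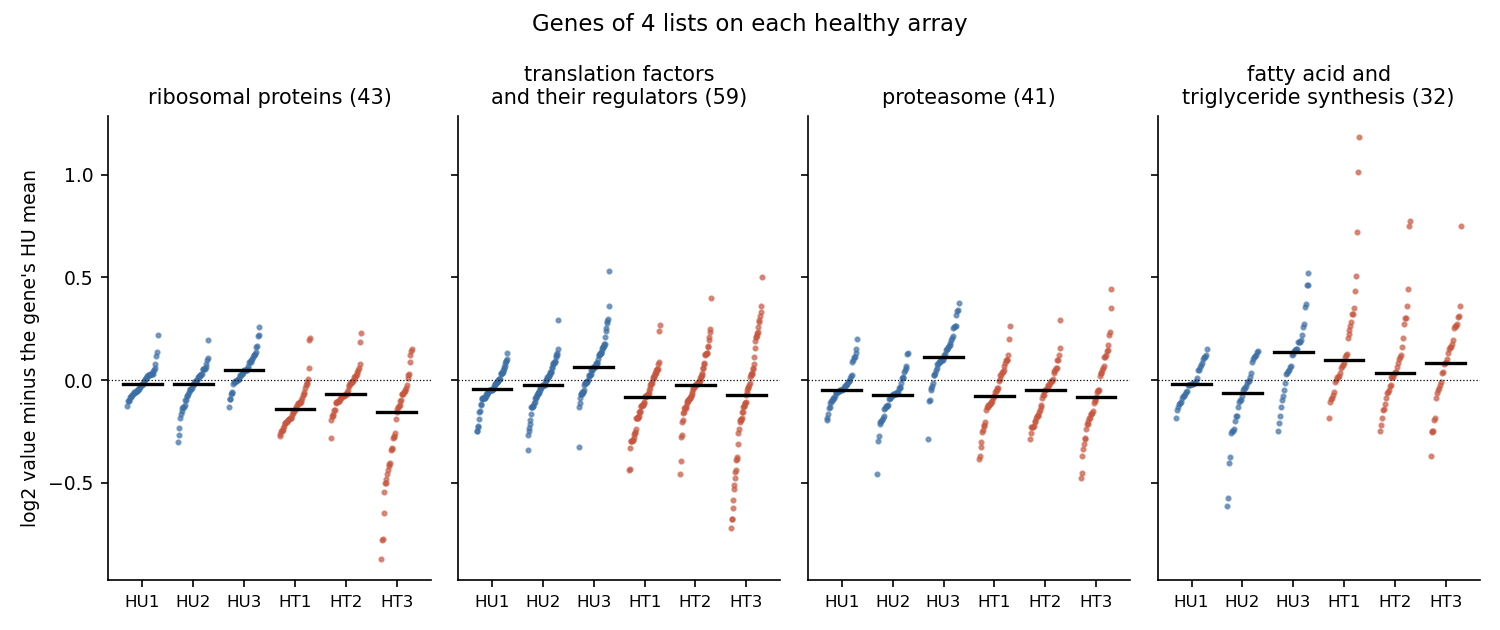
Log2 level of each gene minus its HU mean on each of the 6 arrays for 4 gene lists; points are genes and the black line is the list's median on that array. For the ribosomal proteins the HT medians are −0.14, −0.07 and −0.16, below the HU medians of −0.02, −0.02 and 0.04.

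The other transcripts that were largest by size among the brighter probe sets, with pools that did not overlap and an unadjusted p under 0.01, had an adjusted p of 0.871. Higher in HT were Gtf3c2 (0.54), a subunit of an RNA polymerase III factor, Actn1 (0.49), the actin cross-linker alpha-actinin, and Dtnbp1 (0.47), dysbindin. A second Actn1 probe set differed by 0.01 (interval −0.26 to 0.29). With the scan as a block Gtf3c2 differed by 0.18, Actn1 by 0.14, Lmo7 by 0.20 and Tcaf1 by 0.14, and Actn1 by 0.30 without HT3. Without the block Lmo7, Dpm2, Rbm38, Tcaf1, Map1b and Slc22a8 followed at 0.41 to 0.35. Lower were Pex13 (−0.46), needed for protein import into peroxisomes, Tcp1 (−0.46), a subunit of the cytosolic chaperonin that folds actin and tubulin, and Tc2n (−0.44). Ola1, Ns5atp4, Rtraf and Cox7a2l differed by −0.43 to −0.37. With the scan as a block Pex13 differed by −0.25, Tc2n by −0.29 and Cox7a2l by −0.16. Tc2n differed by 0.63 in DT vs. DU.

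Genes of processes that tungstate is known to touch were bounded about as often as all probe sets, of which 97.0% were within 1.5-fold. In the list of the molybdenum cofactor and its enzymes, 9 of 9 genes were bounded within 1.5-fold, with a median of 0.00, and none had an unadjusted p under 0.05. Xdh (xanthine dehydrogenase) differed by 0.06 (interval −0.26 to 0.38), Suox (sulfite oxidase) by −0.02 (−0.21 to 0.17), Aox1 (aldehyde oxidase) by −0.02 (−0.25 to 0.22), and Mocs2, which makes the cofactor, by 0.00 (−0.19 to 0.18). The mitochondrial reducing components Mtarc1 and Mtarc2 lay at 0.13 and −0.13.

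Of 35 protein tyrosine phosphatases, 34 were bounded within 1.5-fold and the median was −0.02. Ptpn1, the phosphatase of the insulin receptor, differed by 0.01 (−0.21 to 0.23), and Ptpn23 had the smallest p (0.26, unadjusted p = 0.0194). Of 60 serine/threonine phosphatase genes, 58 were bounded within 1.5-fold, and 5 were lower and 0 higher at an unadjusted p under 0.05, against 2.77% and 2.65% of all probe sets. The 5 became 1 without HU3, 2 without HT3 and 1 without both. The protein phosphatase 1 catalytic subunit Ppp1cb was at 7.58, 7.15 and 7.93 in HU and 7.11, 7.29 and 6.60 in HT. These pools overlapped, with HT3 lowest (−0.56, unadjusted p = 0.00911). Ppp1cc, another catalytic subunit, differed by −0.47, and the inhibitor Ppp1r2 was at 7.95, 7.92 and 7.90 in HU and 7.72, 7.63 and 7.53 in HT (−0.30, unadjusted p = 0.00230).

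For the insulin and IGF pathway the median was 0.00 and 39 of 40 genes were bounded within 1.5-fold, with Insr at 0.00 (−0.28 to 0.27) and Akt1 at −0.04 (−0.26 to 0.18). The Erk cascade and its brakes had 27 of 29 bounded, Pebp1, an inhibitor of Raf, at 0.00 (−0.20 to 0.19), and Map2k1 at −0.11. Every member of the lists of apoptosis (33 genes), TGF-beta and BMP signaling (38), metallothioneins and zinc transporters (21), and duct (13), mast (10) and mesothelial cells (5) was bounded within 1.5-fold. Within these, Mt1, a zinc- and copper-binding metallothionein, was at 5.25, 5.27 and 5.17 in HU and 4.90, 4.85 and 4.99 in HT (−0.31, unadjusted p = 0.0390). The mast cell markers Ms4a2, part of the IgE receptor, and Kit lay at 0.32 and 0.21 (unadjusted p = 0.00599 and 0.0255), both with dim signals. Of 50 lists in all, 49 had a median between −0.1 and 0.1.

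**Figure D4:**
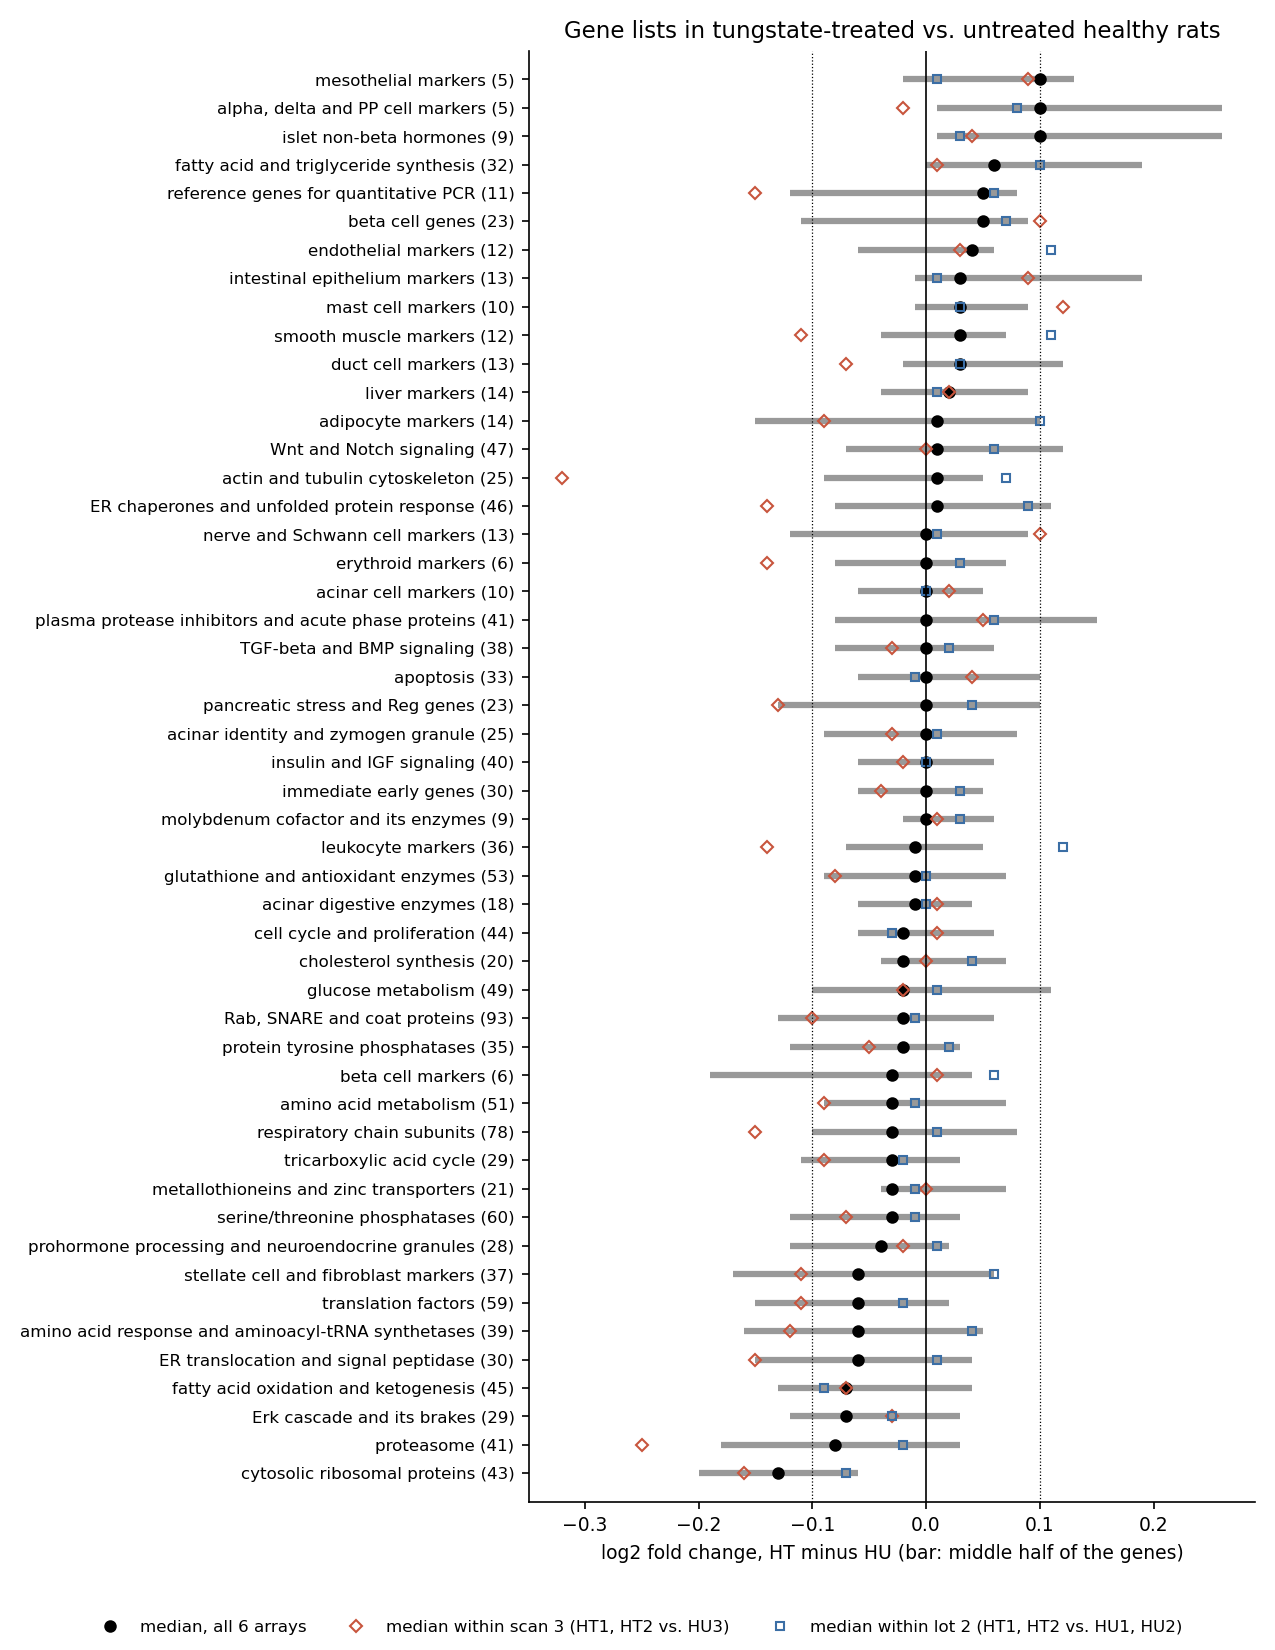
Median log2 change (HT minus HU) of each of 50 gene lists, with the number of genes in brackets and a bar over the middle 50% of genes; diamonds are medians within the shared scan (HT1 and HT2 vs. HU3) and squares within the shared lot (HT1 and HT2 vs. HU1 and HU2). The ribosomal proteins are the one list with a median below −0.1, and the cytoskeleton list runs from −0.32 in the shared scan to 0.07 in the shared lot.

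Of the digestive enzyme genes 16 of 18 were bounded within 1.5-fold, which is below the 97.0% of all probe sets, the exceptions being Amy1 and Amy2a3. Amy2a3 varied mainly in DU (SD 1.29, against 0.07 in HU and 0.16 in HT). With the healthy arrays alone its interval was −0.36 to 0.09, and it was bounded. The brightest lay close to 0, with Cela2a (elastase) at 0.02 (−0.12 to 0.17), Ctrb1 (chymotrypsinogen) at −0.04 (−0.19 to 0.11) and Pnlip (lipase) at −0.06 (−0.23 to 0.11). Array signals saturate at such levels, and the bounds hold for the signal. The enzyme with the smallest p was Prss2, a trypsinogen of a family of near-identical genes, at 12.97, 13.19 and 12.93 in HU and 13.18, 13.44 and 13.53 in HT. The pools overlapped by the highest HU pool and the lowest HT pool (0.36, unadjusted p = 0.00406). The amylase gene Amy1 was at 10.36, 10.47 and 10.72 in HU and 10.27, 10.38 and 9.07 in HT. HT3 alone was low, and the difference of −0.61 was −0.19 without it. In the ER chaperone and unfolded protein response list, 40 of 46 genes were bounded, also below the share of all probe sets, with P4hb, a disulfide isomerase, at 0.06 (−0.12 to 0.24) and the stress factor Ddit3 at −0.20 (−0.44 to 0.04). Hspa5 (BiP) was at 9.54 in HT3 against 10.23 to 10.83 on the other arrays.

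Insulin transcripts were bright and even. Ins2 was at 13.26, 13.43 and 13.32 in HU and 13.47, 13.36 and 13.32 in HT, with overlapping pools and a difference of 0.05. Its interval with the shared spread, which includes the variable diabetic arrays, was −0.62 to 0.71. With the healthy arrays alone it was −0.14 to 0.24. Ins1 differed by 0.01, and by −0.18 to 0.20 with the healthy arrays alone. The regulator Pdx1 differed by −0.06 (−0.27 to 0.14) and the glucose transporter Slc2a2 by −0.23 (−0.58 to 0.13). Of 23 beta cell genes, 20 were bounded within 1.5-fold with the shared spread, which is below the 97.0% of all probe sets. Of the other islet hormones, Gcg (glucagon) lay at −0.39 and Ppy (pancreatic polypeptide) at 0.36, both with intervals that crossed 0 (−1.02 to 0.24 and −0.28 to 1.01). With the healthy arrays alone these were −0.70 to −0.07 for Gcg (unadjusted p = 0.0218) and −0.03 to 0.76 for Ppy, and with the scan as a block Ppy differed by −0.06. Pyy, peptide YY, was at 7.31, 7.49 and 7.43 in HU and 7.68, 7.58 and 7.88 in HT, without overlap (0.31, unadjusted p = 0.0266). Gpx1, glutathione peroxidase, differed by 0.68 (unadjusted p = 0.0171), with 9.88, 10.67 and 11.16 in HT against 9.52 to 10.23 in HU, and by 0.39 without HT3.

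It was then asked how the genes that tungstate changed in diabetic rats behaved in healthy ones. HT vs. HU and DT vs. DU share no array. In DT vs. DU 167 probe sets (1.05%) had a B-statistic above 0, with a median change of 1.72-fold. Since they were chosen on that contrast, their values in it are a description. In HT vs. HU 0 of the 167 passed the adjusted test, and at an unadjusted p under 0.05 there were 3 with the sign of DT vs. DU and 8 with the opposite sign. 149 of them (89.2%) were bounded within 1.5-fold, against 97.0% of all probe sets, and 166 within 2-fold. 92 of the 167 (55.1%) had the same sign in both, against 49.4% of all probe sets. This share was 45.4% for the 97 that were higher in DT and 68.6% for the 70 that were lower, and the median change in the direction of DT vs. DU was 0.01. The change itself differed between diabetic and healthy rats for 64 of the 167 (limma interaction, adjusted p under 0.05), against 0.422% of all probe sets, a count that the choice on DT vs. DU favors.

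Tff2, a trefoil factor of secretory epithelia, was 4.96 higher in DT than in DU and stood at 13.36, 13.41 and 13.44 in HU and 13.36, 13.47 and 13.41 in HT (0.01, interval −0.26 to 0.27). Decr1, an enzyme for unsaturated fatty acid breakdown, and Txnip, the glucose-induced inhibitor of thioredoxin, differed by −2.34 and −2.23 in DT vs. DU. In healthy rats they differed by −0.07 (−0.38 to 0.25) and −0.02 (−0.43 to 0.39). Tdh, threonine dehydrogenase, stood at −4.97 in DT vs. DU and −0.39 (−0.99 to 0.20) in HT vs. HU, where it was 0.45 within the shared scan and −0.46 within the shared lot. A set of 14 transcripts followed the study's quantitative PCR, whose targets were picked partly from these arrays. The set also holds Pdx1 and Pcna, which the study stained as proteins, and Tbp, its PCR reference. Both Amy1 and Amy2a3 stand in it for the study's amylase. In HT vs. HU, 0 of the 14 passed the adjusted test. Within 1.5-fold, 9 of the 14 were bounded with the shared spread and 12 with the healthy arrays alone. Pdx1, Pcna and Tbp were among those bounded in both. Among the 14, Xbp1, the transcription factor of the unfolded protein response, differed by −0.07, Sel1l by 0.07, Tgfb3 by 0.23 (−0.04 to 0.49) and Nupr1, a stress-induced nuclear protein, by 0.37 (−0.04 to 0.79).

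**Figure D5:**
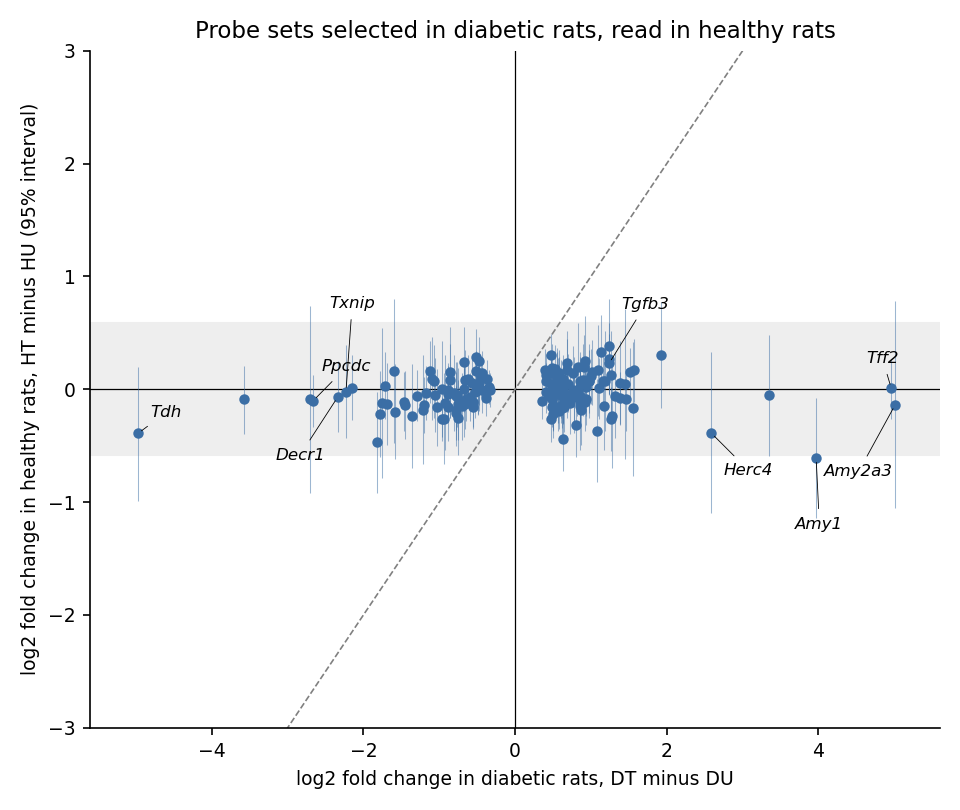
Change in healthy rats (HT minus HU, vertical axis, log2, with 95% intervals) against the change in diabetic rats (DT minus DU, horizontal axis, log2) for the 167 probe sets chosen on the latter; the grey band is 1.5-fold either way and the dashed line marks equal change. Most points lie along 0 on the vertical axis, and 149 of the 167 were bounded within 1.5-fold.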

How the data were processed

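Whole pancreas RNA, pooled from 3 rats per array, was hybridized by the authors to 12 Affymetrix RAE230-A arrays. The deposited log2 values were summarized and normalized by the authors with RMA, which compresses fold changes. The comparisons were then computed with limma 3.58.1 in R 4.3.3 as a 4-group model over the 12 arrays (B-statistic above 0, or Benjamini-Hochberg adjusted p under 0.05), after leaving out 57 control probe sets. Precision is limited by the number of arrays. Of 15866 probe sets, 12783 had 1 gene symbol, 312 several and 2771 none. In lists a gene was represented by 1 probe set.

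The members and lists were chosen with earlier results of these data known. Named genes were the 10 largest differences each way with an unadjusted limma p under 0.01, non-overlapping arrays, 1 symbol and a level above the median. Called probe sets, the 14 transcripts of the PCR set, and each list's smallest p and brightest gene were named too. So were the 5 largest changes each way in DT vs. DU. Other genes are named as list members. The procedure was tested on simulated data. Alternatives were the healthy arrays alone, blocks for replicate number, scan and lot, another normalization or centring, a filter on dim probe sets, a robust trend, another prior and each array left out.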

Additional observations from a re-analysis of the deposited data

Results flagged for a closer look

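The tungstate change differed between diabetic and healthy rats, by a limma interaction test of (DT minus DU) minus (HT minus HU), for 67 probe sets (0.422%), of which 43 had the higher change in diabetic animals and 24 the lower. Of these, 64 had been selected in DT vs. DU, so that their size here is partly a matter of that choice, and 58 were bounded within 1.5-fold in HT vs. HU.

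Mug1 was the named gene that had not been selected in DT vs. DU. Its interaction was 1.62 (SE 0.29, adjusted p = 0.0259), with a fall in healthy rats and a difference of −0.07 in diabetic rats, in which it was already near the lowest levels of the array. The second murinoglobulin probe set was not selected in DT vs. DU either, and stood higher, at 6.02 in DU and 6.13 in DT. Its limma interaction was 1.55 (SE 0.30, adjusted p = 0.0434). Tc2n differed by −0.44 in healthy and 0.63 in diabetic rats (interaction 1.07, adjusted p = 0.0210).

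The rest, like Tc2n, had been selected in DT vs. DU. Amy1 (−0.61, interval −1.14 to −0.08), Herc4 (−0.39, −1.10 to 0.33), Tdh (−0.39, −0.99 to 0.20) and Amy2a3 (−0.14, −1.05 to 0.78) were not bounded within 1.5-fold in HT vs. HU with the shared spread. Nor was C2cd4b (0.30, −0.17 to 0.77) bounded with the shared spread. With the healthy arrays alone Amy2a3 was bounded (−0.36 to 0.09). The interaction was positive for the amylase genes Amy2a3 (5.15) and Amy1 (4.58, a minimum, since its DU level of 4.42 ± 0.02 lay near the lowest levels of the array), for Tff2 (4.95), Herc4 (2.97), C2cd4b (1.62) and Tspan8 (1.55), and for the PCR genes Sostdc1 (1.10), Sel1l (1.09), Tgfb3 (1.02) and Xbp1 (0.88). It was negative for Tdh (−4.58), Ppcdc (−2.56), Decr1 (−2.27), Txnip (−2.21), Hadhb (−0.71) and Pebp1 (−0.67). Adjusted p-values ran from 3.71e-09 (Tff2) to 0.0427 (Pebp1).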

How the results depend on the processing

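With 3 pools a group, the scan shared only by HT1, HT2 and HU3, and a median of 1.73-fold needed for a call, these data bound large effects and leave small ones undetected. Mug1 stayed lower in HT under every alternative that kept it. The bound within 1.5-fold held for 14105 to 15550 of the 15866 probe sets, and for 11470 with the dimmest 25% left out. The 1 call in HT vs. HU, Mug1, became 0 with the healthy arrays alone, with a scan or lot block and with a robust trend. The calls became 2 (Mug1 and the family probe set) after a further quantile normalization. Leaving out the dimmest 25% gave 0 calls, but this filter removed Mug1 itself, which was therefore not tested there. Leaving out 1 array gave 0 to 2 calls. A B-statistic above 0 was reached by 0 probe sets, by 6 with the scan block and by 2 (the same pair) with a prior of 0.05. Lists with a median beyond 0.1 either way numbered 1, but 15 with the scan block, 3 each after quantile normalization and without the dimmest 25%, and 0 to 6 without 1 array. The interaction count of 67 was 37 with the scan block and 32 to 89 without 1 array. Leaving out HU3 and HT3 together, which was chosen after seeing the data, gave 0 calls, 3 such lists and 32 interactions. At an unadjusted p under 0.05 the 859 probe sets were 317 without HT3, 597 without HU3 and 1446 with the scan block, and median centring put 53.4% of all probe sets below 0. Replicate numbers did not pair the pools (correlations of deviations 0.05, −0.29 and −0.21). With the replicate block there were 0 calls, 15449 bounded probe sets and 75 interactions. Over 128 named genes and 21 alternatives, 2569 of 2684 outcomes were kept. For genes named for their difference, the outcome was whether the adjusted p was under 0.05, and all but Mug1 began uncalled. For the others it was whether they were bounded within 1.5-fold. Mug1 itself was called in 9 of 20 alternatives. No gene named for its difference in HT vs. HU changed sign. These genes were chosen for pools that do not overlap, so leaving out pools or blocking by scan could not reverse them. Other uncalled genes did change sign, such as Ppy (−0.06) and Tdh (0.45) with the scan block. Causes were not tested.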

Other observations

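Pool HT3 was highest for 2 gut epithelial genes. Lgals4, a galectin of the intestinal epithelium, was at 7.01 in HT3 against 5.73 to 5.97 on the other 5 arrays, and Lypd8, a protein of the colonic epithelium, was at 6.30 against 4.97 to 5.16. Both were chosen after their values were seen. The brightest intestinal marker, Cdh17, was at 7.82 in HT3 and 7.74 to 7.95 elsewhere, and the list of 13 intestinal markers had a median of 0.03 in HT3 relative to HU.

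Immune transcripts varied between pools, with no pool highest for all of them. The immunoglobulin probe set named Ighl2 was at 11.03 in HU3 against 8.42 to 10.61 on the other arrays, and Cd74, the invariant chain of class II antigen presentation, at 11.19 against 10.06 to 11.03. The class II gene RT1-Bb was at 9.07 in HU3 and 9.10 in HT1, and RT1-CE5 was at 7.24 in HU3 and 7.90 in HT1. These genes were chosen after their values were seen. The 36 leukocyte markers had pool medians of −0.02, −0.16 and 0.17 in HU and 0.14, −0.08 and −0.11 in HT, and their median was −0.14 within the shared scan and 0.12 within the shared lot. Cd4 differed by 0.22 (interval 0.03 to 0.42, unadjusted p = 0.0293).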
